A study of Mus musculus with 8 samples.

Results

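The comparison described here is the difference between the doxorubicin responses of Dino mutant and wild-type (WT) mouse embryonic fibroblasts: the treated-minus-control change of mutant cells minus that of WT cells, on the log2 scale. A positive value means that a gene ended higher, relative to its own control, in mutant than in WT cells, and a negative value means that it ended lower. All 8 libraries of the series enter it, 2 per group, and every gene row of the count table was a candidate. Of 30419 gene names, 18596 had a count in at least 1 library and 12255 had enough counts to be tested.

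The cells were fibroblasts of early passage, grown from E13.5 embryos. WT cells carried Dino +/+ and mutant cells Dino lox/lox, which the labels call mutant. Each genotype received vehicle alone (control) or the DNA-damaging drug doxorubicin at 0.2 µg/mL. RNA was taken after 8 h from cultures plated with 300000 cells. The libraries of a group bear the letters A and B, and no label says that these are separate embryos or cultures, so every p-value may measure technical spread only. The labels give neither strain nor number of embryos, and the level of Dino itself was not analysed here, so the effect of the allele on Dino RNA is not part of these results.

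Dino makes a long noncoding RNA from the neighbourhood of Cdkn1a. It is induced by p53 after DNA damage, and its RNA has been described as a partner of the p53 protein. Damaged fibroblasts use p53 to switch on arrest and death genes such as Cdkn1a, which encodes the cyclin-dependent kinase inhibitor p21. Through p21 and the repressor complex DREAM, the same pathway lowers the genes that cells need for replication and mitosis. A difference of responses between genotypes can therefore lie in the activated genes, in the repressed genes, or in neither.

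Total gene counts ran from 25482805 to 33285171 per library, and a count of 0 allows 3 counts, or 0.0880 to 0.120 CPM (counts scaled to library size, the unit of all levels below), for counting error only. Libraries A and B scattered more in WT with doxorubicin (chi-square divided by its degrees of freedom, 17.3) than in the other 3 groups (5.34 to 6.09). The genotype groups also differed in sex-linked expression. Xist, the RNA of the inactive X chromosome, stood at 0.232 to 0.376 CPM in the WT libraries and at 212 to 575 CPM in the mutant libraries. The 4 Y-linked genes tested summed to 624 to 795 CPM in WT and to 81.2 to 101 CPM in mutant libraries. Whether a value follows the Dino allele or another difference between the cultures cannot be told apart in this design.

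Few genes passed the test. With edgeR's quasi-likelihood test and Benjamini-Hochberg adjustment over all 12255 genes, 9 genes differed at an adjusted p under 0.05, which is 0.0734% of those tested. In 4 of them (0.0326% of genes) the value was above 0: Mki67, Hmmr, Esco2 and Prdm16. In 5 (0.0408%) it was below 0: Apobec1, Pttg1, Bcl11b, Bnc1 and Pcdhb3. Before adjustment, 697 genes (5.69%) had a p under 0.05, 391 above 0 (3.19%) and 306 below (2.5%). The 9 calls depended on single libraries: 0 genes were called without WT control B or without mutant control A, and 51 without WT doxorubicin B. They numbered 3 without WT control A, mutant control B or mutant doxorubicin B, and 4 without mutant doxorubicin A. The count was 16 when genes of chromosomes X and Y were left out, and none of the 434 X-linked and 4 Y-linked genes tested was among the 9.

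Differences between genotypes were small beside the responses themselves. Among the 5084 genes that averaged 10 CPM or more, the median size of the difference was 0.082 on the log2 scale, against 0.41 for the WT response and 0.40 for the mutant response. For 5064 of these 5084 genes (99.6%) the 95% interval of the difference lay within 2-fold in either direction, and over all genes tested this held for 67.9%. Xist was the 1 gene at this level whose estimate passed 2-fold, at 1.03 ± 0.56 (SE), and it was not called (edgeR adjusted p = 0.927). The plot of both responses shows most genes near the line of equal responses, with the mitotic genes above it where both genotypes fell.

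**Figure D1:**
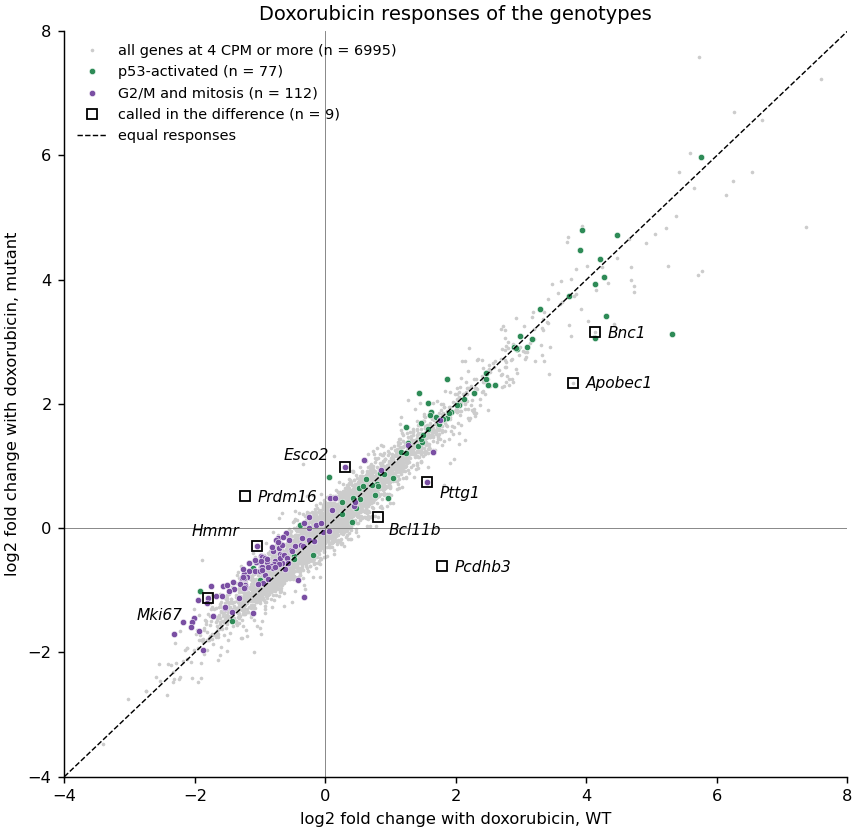
Log2 fold change with doxorubicin in WT cells (x axis) against that in mutant cells (y axis), 1 point per gene averaging 4 CPM or more, with the p53-activated list in green and the G2/M and mitosis list in purple at any level. Squares mark the 9 genes called in the difference. The axes share no library, since each genotype has its own controls. Purple points lie mostly above the dashed line of equal responses, and green points lie along it.

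Mki67 encodes the Ki-67 protein that coats mitotic chromosomes and marks cycling cells. Its level was 116 and 123 CPM in WT controls and 32.8 and 36.1 CPM in WT cells with doxorubicin. In mutant cells it was 118 and 114 CPM in controls and 52.2 and 54.3 CPM with the drug. The controls of the genotypes overlapped, and both treated mutant libraries lay above both treated WT libraries. Doxorubicin left 28.9% of the control level in WT and 45.8% in mutant cells. The responses differed by 0.67 ± 0.11 (SE; edgeR adjusted p = 0.0187). In bulk RNA, fewer cycling cells and less of the RNA in each cell cannot be told apart.

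Hmmr encodes a hyaluronan receptor that also binds the spindle. Its level was 48.9 and 45.3 CPM in WT controls, 22.3 and 23.2 CPM in treated WT cells, 46.1 and 47.3 CPM in mutant controls and 35.7 and 40.6 CPM in treated mutant cells. The control libraries of both genotypes overlapped, and the treated ones did not. Hmmr kept 48.3% of its control level in WT cells and 81.7% in mutant cells, a difference of 0.76 ± 0.12 (edgeR adjusted p = 0.0187).

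Many genes of mitosis carry in their promoters a CHR element, which the DREAM complex and its activating counterparts bind, and CCAAT boxes, which bind NF-Y. The bases before the annotated start of Mki67 and Hmmr are shown because both called genes fell less in mutant cells, and those of Pttg1 because it is the mitotic gene called in the other direction. The sequences are from RefSeq on GRCm38.p6, all on the minus strand, and read 5′ to 3′ toward the start. Capitals mark CHR motifs (TTTGAA or TTCGAA on either strand, so also TTCAAA) and CCAAT boxes (CCAAT or its reverse complement ATTGG), which can share at most 1 base.
Mki67, chr7:135716380-135716629: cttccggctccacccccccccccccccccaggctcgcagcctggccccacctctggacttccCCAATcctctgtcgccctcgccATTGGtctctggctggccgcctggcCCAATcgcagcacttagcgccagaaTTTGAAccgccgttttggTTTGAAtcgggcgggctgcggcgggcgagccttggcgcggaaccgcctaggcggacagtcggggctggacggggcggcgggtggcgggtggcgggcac
Hmmr, chr11:40733438-40733687: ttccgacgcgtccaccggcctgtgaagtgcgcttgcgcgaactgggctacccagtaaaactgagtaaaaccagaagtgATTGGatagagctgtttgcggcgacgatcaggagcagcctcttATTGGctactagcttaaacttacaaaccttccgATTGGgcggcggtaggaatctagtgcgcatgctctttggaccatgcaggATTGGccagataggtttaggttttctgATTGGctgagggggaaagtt
Pttg1, chr11:43425982-43426231: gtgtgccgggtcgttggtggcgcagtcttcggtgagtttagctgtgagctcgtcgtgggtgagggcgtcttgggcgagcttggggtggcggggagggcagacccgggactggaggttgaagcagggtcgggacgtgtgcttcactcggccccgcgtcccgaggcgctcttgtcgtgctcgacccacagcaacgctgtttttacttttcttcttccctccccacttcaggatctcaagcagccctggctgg

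The Mki67 window held 2 CHR motifs, 116 and 98 bases before the start, and 3 CCAAT boxes. The Hmmr window held 5 CCAAT boxes and 0 CHR motifs, and the Pttg1 window held neither. Of the other called genes, Bcl11b held 2 CHR motifs, Apobec1 held 1 and Bnc1 none, all with 0 CCAAT boxes, and Prdm16 held 0 CHR motifs and 1 CCAAT box. Esco2 had no match, and promoters of called genes on chromosome 18, where Pcdhb3 lies, were left out. Over the G2/M and mitosis list described next, 92 of 112 genes matched the RefSeq table, with 100 promoters. A CHR motif was found in 36 of these (36%) and a CCAAT box in 67 (67%), against 5633 and 11120 of all 32851 promoters in the table (17.15% and 33.85%). The p53-activated list, with 65 of 77 genes matched, had a CHR motif in 12 of 95 promoters (12.6%) and a CCAAT box in 38 (40%). A match describes these letters only.

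Esco2 encodes an acetyltransferase that locks cohesin onto sister chromatids during S phase. Its level was 44.0 and 38.5 CPM in WT controls, 46.2 and 55.4 CPM in treated WT cells, 44.6 and 44.5 CPM in mutant controls and 91.0 and 85.7 CPM in treated mutant cells. Unlike Mki67 and Hmmr it rose in both genotypes, to 123% of control in WT and 198% in mutant cells. The treated mutant libraries stood apart from the other 6, and the difference was 0.68 ± 0.13 (edgeR adjusted p = 0.0425).

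Prdm16, a zinc finger regulator known from brown fat, had 40 to 106 counts per library. Its level was 3.68 and 3.11 CPM in WT controls and 1.62 and 1.25 CPM in treated WT cells, a fall that passed the test in WT (-1.23 ± 0.23, edgeR adjusted p = 0.000112). In mutant cells it was 2.54 and 1.59 CPM in controls and 2.92 and 2.96 CPM with the drug (0.51 ± 0.23, edgeR adjusted p = 0.0686). The mutant controls spread more than the other pairs, and the difference was 1.74 ± 0.33 (edgeR adjusted p = 0.0425).

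In 4 of the 5 genes below 0 the genotypes differed before treatment by the same test, the exception being Pcdhb3. Apobec1, an RNA-editing cytidine deaminase, was at 0.892 and 0.998 CPM in WT controls and at 2.64 and 2.47 CPM in mutant controls. With doxorubicin it reached 13.0 and 13.4 CPM in WT and 13.0 and 12.9 CPM in mutant cells. The treated mutant libraries lay just below the treated WT libraries, while the mutant controls were higher by 1.42 ± 0.20 (edgeR adjusted p = 6.16e-05). The responses differed by -1.45 ± 0.24 (edgeR adjusted p = 0.0187).

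Bnc1 encodes the zinc finger factor basonuclin. Its level was 2.49 and 3.23 CPM in WT controls, 55.4 and 46.3 CPM in treated WT cells, 6.72 and 7.15 CPM in mutant controls and 64.0 and 59.4 CPM in treated mutant cells. The fold change was 17.6 in WT and 8.88 in mutant cells, and the difference was -0.98 ± 0.18 (edgeR adjusted p = 0.0422). On the linear scale the order was the opposite, since Bnc1 gained 48.0 CPM in WT and 54.7 CPM in mutant cells. For Apobec1 the gains were 12.3 and 10.4 CPM.

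Pttg1 encodes securin, the inhibitor of separase that is destroyed at anaphase. It was at 8.69 and 9.92 CPM in WT controls, 28.4 and 26.5 CPM in treated WT cells, 18.0 and 18.9 CPM in mutant controls and 30.5 and 31.3 CPM in treated mutant cells. Both genotypes rose, by 18.1 and 12.5 CPM, and the controls differed more than the treated libraries. The difference of the responses was -0.81 ± 0.14 (edgeR adjusted p = 0.0282). Pttg1 was the only G2/M member called higher in mutant controls (0.98 ± 0.10), and with doxorubicin the genotypes differed by 0.17 ± 0.09 (edgeR adjusted p = 0.318).

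Bcl11b, a zinc finger factor best known from T cells, was at 102 and 85.8 CPM in WT controls and 170 and 157 CPM in treated WT cells. In mutant cells it was at 197 and 197 CPM in controls and 225 and 224 CPM with doxorubicin. Here the mutant libraries were higher in both conditions, by 1.07 ± 0.08 in controls and 0.45 ± 0.08 with the drug, and both passed the test. The gain was 70.0 CPM in WT and 27.2 CPM in mutant cells, a difference of -0.62 ± 0.11 on the log2 scale (edgeR adjusted p = 0.0323).

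Pcdhb3, a clustered protocadherin of cell adhesion, had the largest estimate among the 9, -2.40 ± 0.44 (edgeR adjusted p = 0.0422), on 25 to 118 counts per library. It was at 0.929 and 1.06 CPM in WT controls, 3.91 and 3.00 CPM in treated WT cells, 2.37 and 1.05 CPM in mutant controls and 1.20 and 1.03 CPM in treated mutant cells. The treated WT libraries were the high ones, and mutant control A was more than 2-fold above mutant control B. Genes of this cluster share sequence, so how the authors' counting divided their reads is uncertain.

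**Figure D2:**
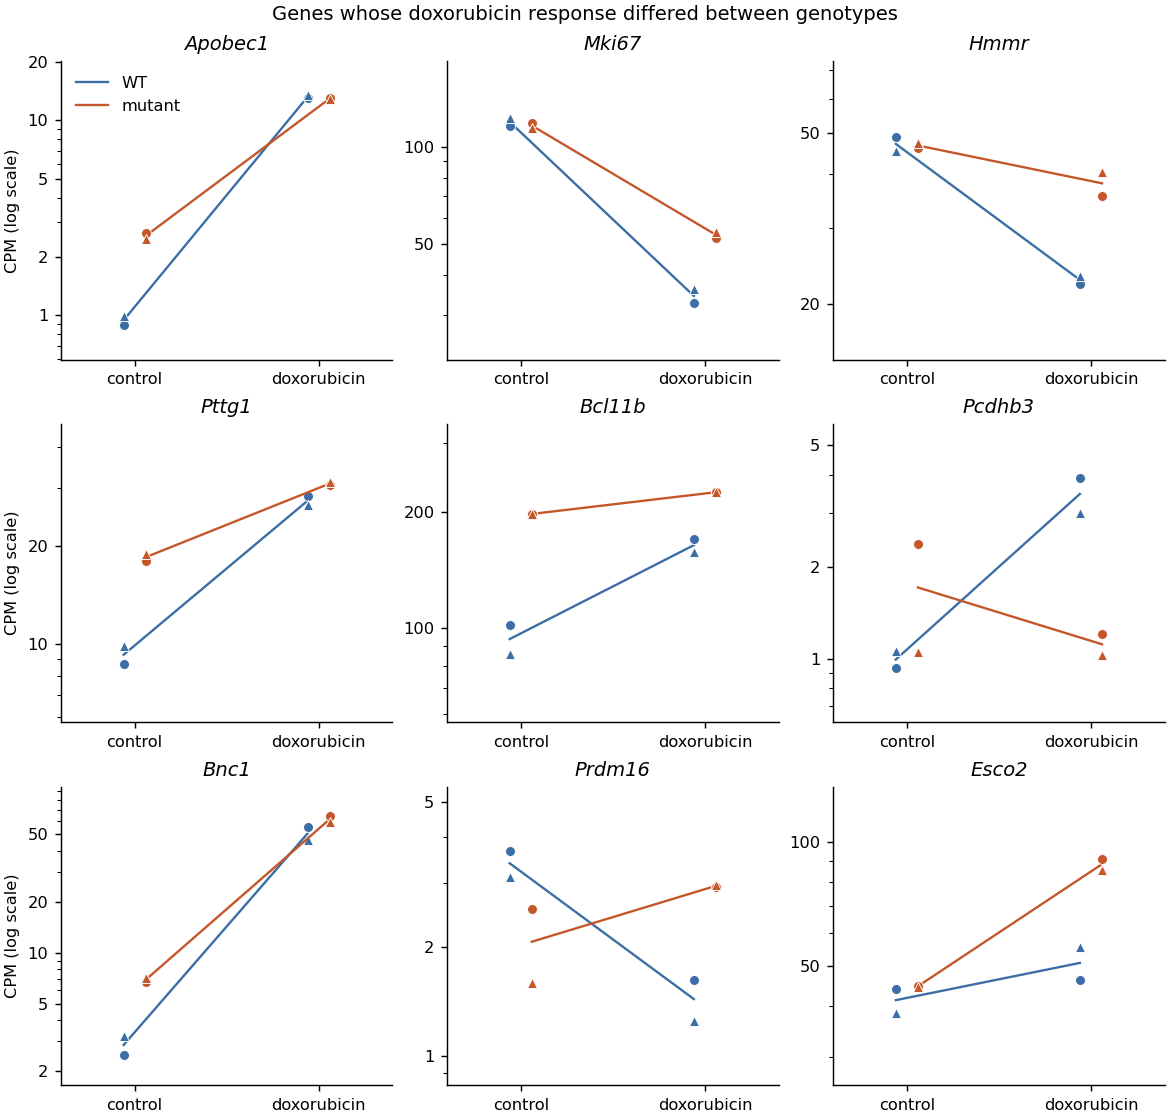
CPM on a log axis for the 9 genes called in the difference, in control and doxorubicin libraries of WT (blue) and mutant (red) cells. Circles are libraries A, triangles libraries B, and lines join the group means. Mki67, Hmmr and Esco2 start together and separate with the drug, while Apobec1, Pttg1 and Bnc1 start apart and end closer together.

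Calls of the 9 genes were followed through the alternative settings. Mki67 was called in 13 of 17, Apobec1, Hmmr and Bcl11b in 12, Pttg1 in 11, and Bnc1 and Esco2 in 8, while Pcdhb3 was called in 8 and Prdm16 in 7 of the 15 that gave them an adjusted p. Each count includes the main fit read at an adjusted p under 0.10, where all 9 pass by definition. Every estimate kept its sign in all of these settings. Of the 8 fits that each left out 1 library, Mki67 and Apobec1 passed in 4, and Bnc1, Esco2 and Prdm16 in 1. A fit of 7 libraries has 1 residual degree of freedom less than the full fit.

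The list of G2/M and mitosis genes, 114 in number with 112 tested, leaned above 0 as a whole. Of the 112, 99 had a positive difference, where 52.1% of all genes tested did, and the median was 0.33 against 0.0092 over all genes. An unadjusted p under 0.05 was reached above 0 by 50 members (3.19% of all genes) and below 0 by 1, Pttg1 (2.5%). In 71 members every pairing of a treated with a control mutant library lay above every such WT pairing, which was the case for 9.25% of all genes, and in 4 it lay below (8.25% of all genes). After adjustment over all genes, 3 members passed above 0 (0.0326% of all genes) and 1 below (0.0408%). The list was chosen with earlier results of these data known, so its lean is not independent evidence.

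The lean lay in the treated libraries. The summed level of the 112 genes was 7446 and 7374 CPM in WT controls and 7699 and 7558 CPM in mutant controls. With doxorubicin it was 4760 and 4706 CPM in WT and 5751 and 5666 CPM in mutant cells. Members fell in both genotypes, 89 in WT (28.1% of all genes fell) and 81 in mutant cells (25.9%), while 8 and 11 rose (29.3% and 28.3% of all genes). The median response was -0.89 in WT and -0.56 in mutant cells. In controls 1 member was called higher in mutant cells (2.75% of all genes) and 0 lower (3.17%). With doxorubicin 47 were called higher (3.92%) and 0 lower (3.82%). These genotype comparisons use the same libraries as the difference, which equals the second minus the first. The 98 members that fell on average over the genotypes had a median difference of 0.36, and the 14 that rose had 0.073.

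**Figure D3:**
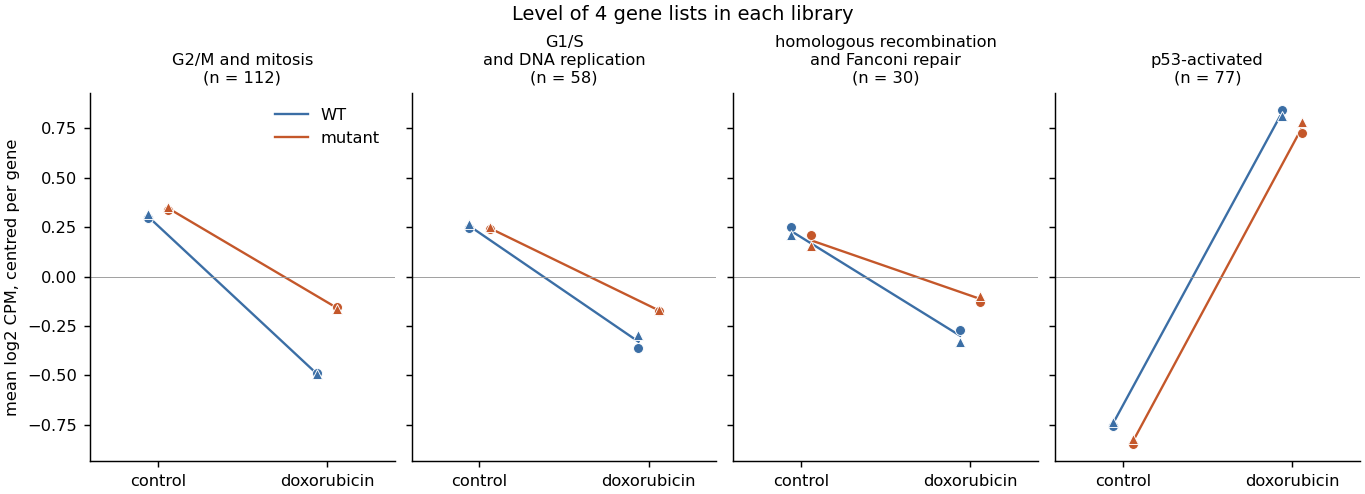
Mean log2 CPM of the members of 4 gene lists in each library, with every gene centred on its own mean over the 8 libraries. Circles are libraries A and triangles libraries B of WT (blue) and mutant (red) cells, and lines join group means. The G2/M and mitosis lines start together in the controls and end at -0.49 in both treated WT libraries and at -0.15 and -0.16 in the treated mutant libraries, while the p53-activated lines run side by side.

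By role, the 13 mitotic kinesins had the highest median difference, 0.50, with 12 above 0. Kif11, the motor that pushes spindle poles apart, was at 23.4 and 22.3 CPM in WT controls, 5.40 and 6.38 CPM in treated WT cells, 24.9 and 24.5 CPM in mutant controls and 9.56 and 12.7 CPM in treated mutant cells. Its treated libraries did not overlap between genotypes, and the difference was 0.80 ± 0.18 (edgeR adjusted p = 0.103). Kif14, a motor of cytokinesis, had 0.57 ± 0.13, and Kif15, a partner of Kif11 at the spindle, had 0.53 ± 0.13. The exception in sign was Kif18b, which rose in both genotypes and had -0.42 ± 0.23. None of the kinesins was called.

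The 17 kinases, cyclins and phosphatases had a median of 0.40, with 14 above 0 and 0 called. Cdk1, the kinase that drives entry into mitosis, went from 82.6 and 91.2 to 35.2 and 42.3 CPM in WT and from 92.7 and 103 to 60.3 and 61.4 CPM in mutant cells. Its difference was 0.48 ± 0.13 (edgeR adjusted p = 0.223). The checkpoint kinases Bub1 and Ttk had 0.50 ± 0.13 and 0.51 ± 0.14. Among the cyclins, Ccnb1 had 0.43 ± 0.12, Ccna2 0.18 ± 0.09 and Ccnb2 0.076 ± 0.20, so the members of the group were not alike in size. The cyclins were chosen after their values were seen.

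The 25 centromere and kinetochore genes had a median of 0.39, with 23 above 0. Casc5, a kinetochore scaffold that recruits Bub1, had the highest value of the whole list, 0.82 ± 0.16. It was at 18.2 and 19.1 CPM in WT controls, 5.20 and 5.91 CPM in treated WT cells, 16.0 and 18.0 CPM in mutant controls and 9.16 and 8.78 CPM in treated mutant cells (edgeR adjusted p = 0.0538). Cenpq, a kinetochore subunit gene, had 0.56 ± 0.14. Cenpa, the centromeric histone H3 gene itself, had -0.026 ± 0.13.

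The 20 genes of the spindle, midzone and cytokinesis had a median of 0.33, with 18 above 0 and Hmmr called. Cep55, an abscission factor, was at 382 and 378 CPM in WT controls, 256 and 260 CPM in treated WT cells, 399 and 386 CPM in mutant controls and 341 and 348 CPM in treated mutant cells. The difference was 0.37 ± 0.09 (edgeR adjusted p = 0.175). Nusap1, which bundles spindle microtubules, had 0.51 ± 0.12. The 13 genes of the spindle checkpoint and anaphase promoting complex had a median of 0.28, with 11 above 0 and 0 called. Among them Fbxo5, the inhibitor of the anaphase promoting complex also called Emi1, had 0.61 ± 0.15, the survivin gene Birc5 0.38 ± 0.10 and the ubiquitin-conjugating enzyme gene Ube2c 0.36 ± 0.11.

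The 25 genes of chromosome condensation and cohesion had the lowest median of the 6 roles, 0.21, and held 3 of the 4 members called. Of these, 2 were above 0 (0.0326% of all genes) and 1 below (0.0408%). Top2a, the type II topoisomerase that doxorubicin traps on DNA, was at 119 and 117 CPM in WT controls, 56.5 and 62.6 CPM in treated WT cells, 127 and 138 CPM in mutant controls and 97.7 and 96.4 CPM in treated mutant cells. All treated WT libraries lay below all treated mutant libraries, and the difference, 0.54 ± 0.11, narrowly missed the threshold (edgeR adjusted p = 0.0505). Sgol2, a protector of centromeric cohesion, had 0.51 ± 0.10 (edgeR adjusted p = 0.0538), and the condensin II subunit gene Ncapg2 had 0.42 ± 0.10. The cohesin genes Smc3 and Smc1a had 0.17 ± 0.11 and 0.21 ± 0.14, and the condensin gene Smc4 had 0.16 ± 0.10. These genes were chosen after their values were seen and do not stand for all core subunits.

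Genes of G1/S and DNA replication had smaller values. Of 58 tested, 45 were above 0, where 52.1% of all genes were, and the median was 0.19. An unadjusted p under 0.05 was reached above 0 by 8 (3.19% of all genes) and below 0 by 0 (2.5%), and 0 were called. Mcm6, a subunit of the replicative helicase, was at 18.2 ± 2.67 CPM (SD, n = 2) in WT controls, 9.54 ± 0.0866 CPM in treated WT cells, 23.8 ± 0.808 CPM in mutant controls and 17.6 ± 0.686 CPM in treated mutant cells. It was higher in mutant cells in both conditions, and the difference of the responses was 0.50 ± 0.15 (edgeR adjusted p = 0.443). Gmnn, the licensing inhibitor geminin, had 0.64 ± 0.22, the repressor gene E2f8 0.45 ± 0.18 (0.28 without mutant doxorubicin A), and Pcna, the polymerase clamp, 0.25 ± 0.11. The 16 E2F and G1 cyclin genes were split evenly, with 8 above 0 and a median of -0.011, whereas 16 of 18 licensing and helicase genes and 21 of 24 polymerase and nucleotide genes were above 0.

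Among 30 genes of homologous recombination and Fanconi repair, 25 were above 0 (52.1% of all genes) with a median of 0.26. An unadjusted p under 0.05 was reached above 0 by 7 (3.19% of all genes) and below 0 by 0 (2.5%), and 0 were called. Brca2, a gene of homologous recombination, went from 9.51 and 8.10 to 2.85 and 2.44 CPM in WT and from 9.09 and 7.76 to 3.84 and 4.19 CPM in mutant cells, a difference of 0.66 ± 0.23. Bard1, another gene of homologous recombination, had 0.61 ± 0.21. Ube2t, the ubiquitin-conjugating enzyme of the Fanconi pathway, had 0.75 ± 0.23 (edgeR adjusted p = 0.419). With doxorubicin 5 members of this list were called higher in mutant cells and 0 lower, against 3 and 1 in the G1/S list (3.92% and 3.82% of all genes).

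The p53-activated genes did not share this lean. Of 86 listed, 77 were tested and 34 of these were above 0 (52.1% of all genes), with a median of -0.019. An unadjusted p under 0.05 was reached above 0 by 3 members and below 0 by 1, near the shares of all genes (3.19% and 2.5%), and 0 were called. In WT cells 63 rose and 7 fell (29.3% and 28.1% of all genes), and in mutant cells 62 rose and 6 fell (28.3% and 25.9%). For 62 of the 77 the 95% interval lay within 2-fold either way (67.9% of all genes). The summed level of the list was 6859 to 7103 CPM over the 4 control libraries and 21554 to 22193 CPM over the 4 treated ones. In these sums the genotypes overlapped in the treated libraries, and both mutant controls lay slightly above both WT controls. The mean centred log2 CPM, which weights all members alike, was lower in mutant cells in both conditions. It was -0.85 and -0.82 in mutant against -0.76 and -0.74 in WT controls. With doxorubicin it was 0.73 and 0.78 in mutant against 0.84 and 0.81 in WT cells.

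Cdkn1a was at 11.3 and 13.8 CPM in WT controls, 72.5 and 66.2 CPM in treated WT cells, 8.61 and 9.35 CPM in mutant controls and 49.9 and 51.7 CPM in treated mutant cells. Mutant libraries were lower in both conditions, with a mutant-minus-WT difference of -0.49 ± 0.11 in controls (edgeR adjusted p = 0.00827) and -0.45 ± 0.09 with doxorubicin (edgeR adjusted p = 0.00231). The responses, 2.46 in WT and 2.50 in mutant cells, differed by 0.045 ± 0.14 (95% interval -0.25 to 0.34, edgeR unadjusted p = 0.757). This estimate ran from -0.11 to 0.18 when single libraries were left out. Over the 14 genes tested near Cdkn1a and Dino, the median difference was 0.021 and 0 were called.

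Mdm2, the ubiquitin ligase that degrades p53, was at 140 and 132 CPM in WT controls, 1204 and 1112 CPM in treated WT cells, 144 and 135 CPM in mutant controls and 1066 and 1037 CPM in treated mutant cells. Its difference was -0.18 ± 0.10 (95% interval -0.38 to 0.022). Trp53, which encodes p53, ranged from 6.66 to 8.93 CPM over all 8 libraries and had 0.20 ± 0.20. Two-sided unadjusted p-values under 0.05 belonged to Klhl26, a ubiquitin ligase adaptor gene (0.55 ± 0.15), to the death receptor gene Tnfrsf10b (0.39 ± 0.12), to the repair gene Zfp365 (0.24 ± 0.11) and to Cyfip2, a regulator of translation and actin (-1.07 ± 0.39). None passed adjustment. Leaving out single libraries moved Cyfip2 from -1.52 to -0.48, the latter without mutant control A, Tnfrsf10b from 0.25 to 0.52, Zfp365 from 0.14 to 0.32 and Trp53 from 0.037 to 0.34.

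Several p53-activated genes were offset between genotypes in controls, with doxorubicin or in both. None of the 77 had a difference of responses that passed the test. Cdkn1a, Pmaip1 and Perp were called lower in mutant cells in both conditions. Other offsets were unequal between conditions. Klhl26 was shifted by -0.63 ± 0.11 in controls and -0.088 ± 0.09 with doxorubicin, and Plk2 by 0.34 ± 0.08 and 0.11 ± 0.08. In controls 5 of the 77 were called lower in mutant cells (3.17% of all genes), Cdkn1a, Klhl26, Pmaip1, Perp and Bid, and 3 higher (2.75% of all genes), Plk2, Rap2b and Ei24. With doxorubicin 5 were called lower (3.82%), Cdkn1a, Pmaip1, Perp, Tnfaip8 and Ephx1, and 0 higher (3.92%). Pmaip1, which encodes the death protein Noxa, was shifted by -0.57 ± 0.07 in controls and -0.44 ± 0.07 with the drug, a difference of 0.13 ± 0.10. Perp, a membrane protein gene of p53-dependent death, was shifted by -0.73 ± 0.11 and -0.95 ± 0.08, a difference of -0.22 ± 0.14. Pmaip1 and Perp are named because of these calls.

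**Figure D4:**
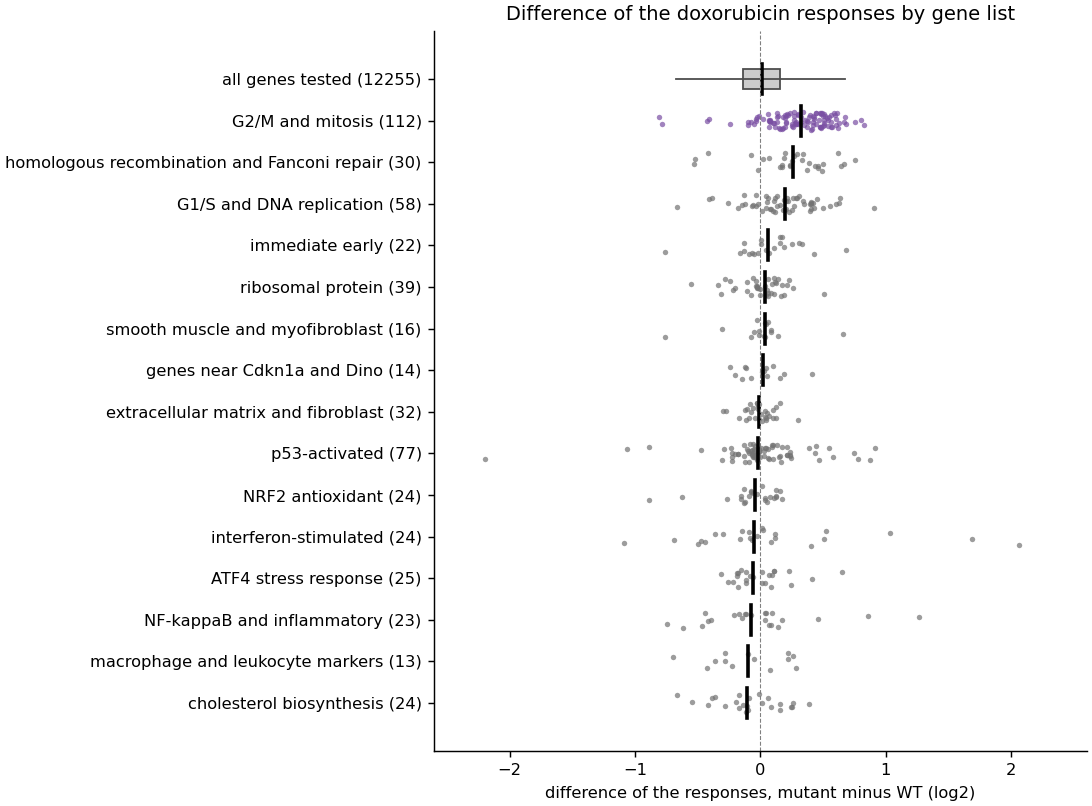
Difference of the doxorubicin responses (mutant minus WT, log2) for the tested members of the gene lists with 13 or more such members, 1 point per gene, with the number of genes in parentheses. Black bars are medians, and the box of all genes shows the median and quartiles, with whiskers that reach beyond the quartiles. The G2/M and mitosis, recombination and G1/S medians lie at 0.33, 0.26 and 0.19, and the other medians shown between -0.10 and 0.057.

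The remaining genes of the 30 with the smallest p, 21 in number, did not pass adjustment, and their values are given as such. Together with the called genes, 18 of the 30 were above 0 and 12 below. Of the 18, 15 differed between genotypes only with doxorubicin by the same test, 1 only in controls and 2 in both, and 12 belonged to the G2/M list. Of the 12 below 0, 6 differed only in controls, 3 only with doxorubicin and 3 in both, and Pttg1 was the 1 member of that list. Over all genes, 2.75% were called higher and 3.17% lower in mutant controls, and 3.92% higher and 3.82% lower with doxorubicin. The G2/M list made up 112 of the 12255 genes tested. The 30 were chosen by the difference and the genotype calls reuse its libraries, so these counts only describe where it arose.

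Among those above 0 outside the mitotic list, Apold1, an early response gene of endothelial cells, was at 1.56 and 2.32 CPM in WT controls, 1.29 and 1.82 CPM in treated WT cells, 6.14 and 5.19 CPM in mutant controls and 11.6 and 11.6 CPM in treated mutant cells. It rose in mutant cells (1.04, edgeR adjusted p = 1.06e-05), and the WT response was -0.34 (edgeR adjusted p = 0.227). The difference was 1.38 ± 0.28 (edgeR adjusted p = 0.0613). Pdk4, the kinase that turns off pyruvate dehydrogenase, was lower in mutant cells in both conditions, at 31.3 and 32.9 against 66.7 and 63.0 CPM in controls and at 496 and 486 against 753 and 689 CPM with doxorubicin. Its difference was 0.46 ± 0.10. Zfp367, a zinc finger gene, had 0.51 ± 0.11, and Ptgs2, the inducible cyclooxygenase, had 0.46 ± 0.11 with mutant controls 0.53 lower on the log2 scale.

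Below 0, Lin7a, a scaffold gene of cell polarity, came closest to the threshold. It was at 1.82 and 1.70 CPM in WT controls, 6.72 and 5.66 CPM in treated WT cells, 6.96 and 6.44 CPM in mutant controls and 10.8 and 10.9 CPM in treated mutant cells, a difference of -1.12 ± 0.22 (edgeR adjusted p = 0.0505). The Notch target genes Hey1 and Hey2 had -0.68 ± 0.15 and -0.49 ± 0.11, and both were higher in mutant than in WT controls. Spry1, a feedback inhibitor of growth factor signalling, fell in mutant cells from 44.5 and 44.0 to 24.8 and 26.3 CPM, and went from 29.3 and 32.6 to 27.2 and 27.4 CPM in WT cells. Its difference was -0.61 ± 0.12 (edgeR adjusted p = 0.0538). Abcg1, a cholesterol exporter gene, had -0.70 ± 0.16, Tceal1, a transcription elongation factor-like gene, -0.65 ± 0.16, and Gldn, which encodes gliomedin, -0.59 ± 0.14.

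**Figure D5:**
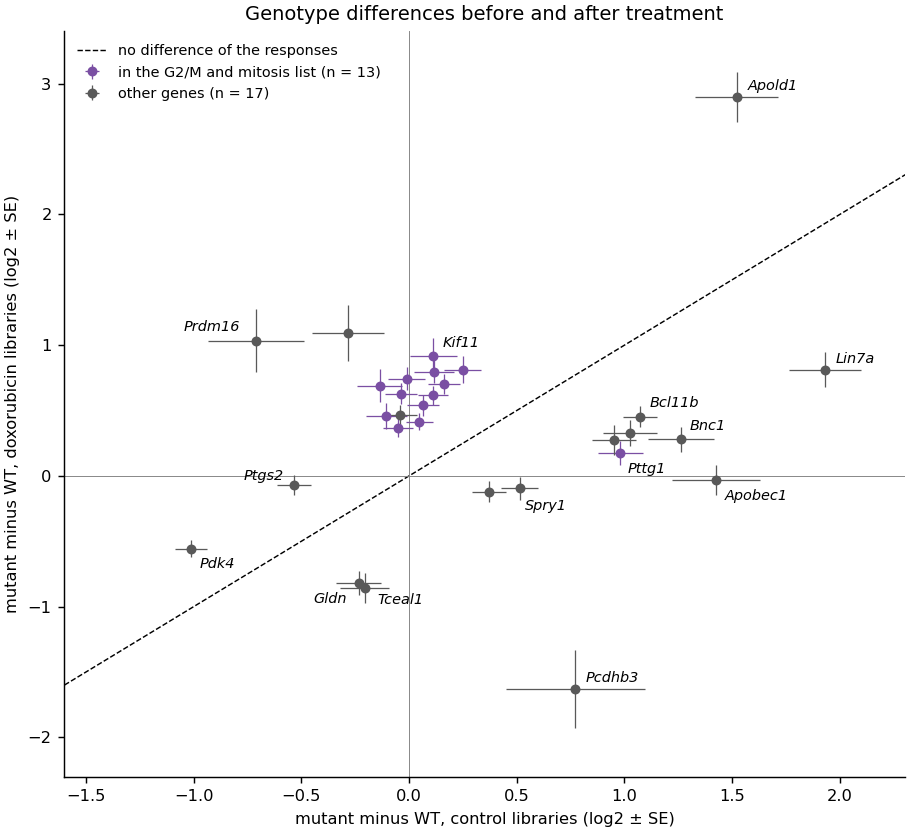
Mutant-minus-WT log2 difference in control libraries (x axis) against that in doxorubicin libraries (y axis), each with its SE, for the 30 genes with the smallest p of the difference. Vertical distance from the dashed diagonal is the difference of the responses. The 12 G2/M genes above the diagonal sit near 0 on the x axis, and Pttg1 lies below it near 0.98 with Bcl11b and Bnc1.

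Other programmes showed no called member. Among 24 interferon-stimulated genes the median difference was -0.048, although 10 were called lower in mutant controls (3.17% of all genes) and 11 lower in mutant cells with doxorubicin (3.82%). This median rests on the WT controls, which stood apart from each other for this list: mean centred log2 CPM was -0.43 in A and 0.42 in B. It was 0.27 without WT control A and -0.59 without WT control B. Ifih1, a sensor of double-stranded RNA, was at 4.38 and 6.69 CPM in WT controls, 9.34 and 9.20 CPM in treated WT cells, 2.37 and 2.17 CPM in mutant controls and 5.32 and 5.45 CPM in treated mutant cells. It was lower in mutant cells throughout, with a difference of responses of 0.52 ± 0.25 (edgeR adjusted p = 0.876), which was 0.78 without WT control A and 0.17 without WT control B.

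Medians were -0.077 over 23 NF-kappaB and inflammatory genes, 0.057 over 22 immediate early genes, -0.058 over 25 ATF4 genes, -0.10 over 24 cholesterol genes, -0.045 over 24 NRF2 genes and 0.034 over 39 ribosomal protein genes. Ccl2, a chemokine gene, had -0.42 ± 0.14 and rose in both genotypes, from 48.0 and 44.0 to 251 and 196 CPM in WT and from 44.7 and 40.8 to 147 and 162 CPM in mutant cells. Fos, a subunit of AP-1, had 0.31 ± 0.16. Connective tissue growth factor, Ctgf, had 0.25 ± 0.11 and was lower in mutant cells in both conditions. Fos had 0.57 without mutant control A and 0.075 without mutant control B. Ccl2 ran from -0.60 to -0.24 and Ctgf from 0.14 to 0.36 when single libraries were left out.

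The fibroblast identity of the cultures was checked on 32 genes of extracellular matrix and fibroblasts, all of which were tested and which summed to 21886 to 34664 CPM per library. Their median difference was -0.015, and for all 32 the 95% interval lay within 2-fold. The 16 smooth muscle and myofibroblast genes had a median of 0.033, with Acta2 at 0.062 ± 0.092 (0.0099 to 0.11 without single libraries). The 13 macrophage and leukocyte markers tested summed to 68.7 to 70.4 CPM in WT controls, 92.1 to 94.0 CPM in treated WT, 94.5 to 95.3 CPM in mutant controls and 111 to 119 CPM in treated mutant libraries. Their median difference was -0.10, Ptprc, the pan-leukocyte CD45 gene, had -0.37 ± 0.24 (-0.61 to -0.16 without single libraries), and 0 were called. Endothelial, epithelial, skeletal muscle and erythroid markers summed to at most 11.0 CPM each in any library, neural markers to 45.7 to 75.1 CPM, and cartilage and bone markers to 545 to 742 CPM. The endothelial genes Cldn5 and Tie1, the epithelial gene Cldn4, the embryonic myosin gene Myh3 and 4 haemoglobin genes had 0 counts in every library. The part of these cells in the results above was not tested.

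Sex-linked genes separated the genotypes in level but not by a called difference of responses. Ddx3y, a Y-linked RNA helicase gene, went from 580 and 512 to 448 and 472 CPM in WT and from 74.0 and 74.0 to 58.7 and 60.6 CPM in mutant cells, a difference of -0.064 ± 0.10. The 4 Y-linked genes ranged from -0.064 to 0.13. Xist rose in mutant cells from 254 and 212 to 575 and 469 CPM. Its WT libraries held 7 to 12 counts, so the size of its difference rests on them. The 434 X-linked genes had a median of 0.020, and 20 of them (4.61%) had an unadjusted p under 0.05, where 5.69% of all genes did.

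The SE of the difference fell as the level of a gene rose. The median SE of the difference was 0.71 for genes under 1 CPM, 0.28 from 1 to 10 CPM, 0.14 from 10 to 100 CPM and 0.099 from 100 CPM up. None of the 2467 genes under 1 CPM was called. In the higher classes 3 of 4704, 5 of 3578 and 1 of 1506 genes were called, where 0.0734% of all genes were. At an adjusted p under 0.10, 18 genes passed, 10 above 0 and 8 below.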

How the data were processed

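RNA of 8 libraries was counted per gene. The authors deposited raw counts, 1 value per gene name, made with Bowtie2 and HTSeq on mm9, per the submitters' processing notes. The annotation and strand setting are not given in the sources used here, so overlapping or antisense genes cannot be told apart, and the labels name both an exome-capture kit and 3' sequencing.

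In R 4.3.3, genes passing filterByExpr (minimum count 10, total 15) were scaled by TMM and fitted with edgeR 4.0.16, quasi-likelihood, 1 coefficient per group, 8 libraries, 4 residual degrees of freedom. P-values are two-sided and adjusted by Benjamini-Hochberg over 12255 genes. The SE is the log2 value divided by the square root of F. limma 3.58.1 and DESeq2 1.42.0 served as alternatives, with other scalings, filters, a library block, genes of X and Y left out, and single libraries left out. The scripts were tested on simulated data.

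Named genes were those called, the smallest p up to 30 with a mean of at least 4 CPM, Cdkn1a, Mdm2, Trp53, up to 3 members per list or role by p at that level, and sex-linked genes. UCSC identifiers (266 tested) and symbols turned to dates (16) were counted and not named. Members, lists and rules were chosen with earlier results of these data known. Kif4 counts under 2 roles. A gene that the rule names is not reported here. List members that were not tested had at most 14 counts in any library. Chromosomes, from GRCm38, matched 11849 tested names (96.7%).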

Additional observations from a re-analysis of the deposited data

Results flagged for a closer look

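For 9 genes the test of the difference between the genotypes' responses passed after adjustment over all genes (edgeR's quasi-likelihood test). The log2 difference, mutant minus WT, was 0.67 for Mki67, 0.76 for Hmmr, 0.68 for Esco2 and 1.74 for Prdm16. It was -1.45 for Apobec1, -0.81 for Pttg1, -0.62 for Bcl11b, -0.98 for Bnc1 and -2.40 for Pcdhb3. For all 9, each of the 4 treated-against-control pairings in mutant cells lay on 1 side of the 4 pairings in WT cells. Over all genes, the mutant pairings lay above in 9.25% and below in 8.25%. The pairings reuse the libraries of the test that picked the 9, so they add no support to it. Groups of 2 libraries are too small for a check of single outlying libraries.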

How the results depend on the processing

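The 9 calls became 18 with DESeq2 (4752 of 12255 adjusted p not given), 4 with limma-voom, 48 with no filter, 5 at 5 CPM in 2 libraries, 18 at an adjusted p under 0.10 and 16 without chromosomes X and Y. They were 10 with DESeq2 size factors and 9 with upper-quartile factors. DESeq2 called 7 of the 9 again and gave no adjusted p for Pcdhb3 and Prdm16, and limma-voom called Bcl11b, Hmmr, Mki67 and Pttg1. Leaving out single libraries gave 0 to 51 calls. The 3 G2/M members called above 0 became 8 with DESeq2, 9 with no filter, 6 at an adjusted p under 0.10, 6 without chromosomes X and Y, and 0 to 9 without single libraries. The list's median was 0.32 with no filter, 0.29 at 5 CPM, and 0.28 to 0.34 without single libraries, and that of the p53-activated list -0.022 to 0.015. The share of genes within 2-fold was 96.8% at 5 CPM. The cause of these shifts was not tested.

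The letters A and B were not taken as pairs, since no label ties them and not every correlation was positive. Deviations of same-lettered libraries correlated at -0.13 between WT control and WT doxorubicin and at 0.12 to 0.28 between the other 5 pairs of groups, across 5084 genes. With the letter as a replicate block, 14 genes were called, all 9 among them, and 5 G2/M members above 0.

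Differences near 0 changed sign without single libraries. Ranges were -0.11 to 0.18 for Cdkn1a, -0.15 to 0.022 for Ddx3y, -0.69 to 0.20 for Ddx58, -0.22 to 0.25 for Eif2s3x, -0.19 to 0.058 for Eif2s3y, -0.018 to 0.25 for Ifit2, -0.081 to 0.41 for Kdm5c, -0.028 to 0.26 for Kdm5d and -0.0081 to 0.10 for Kdm6a. They were -0.41 to 0.026 for Ppil1, -0.20 to 0.0018 for Rrm2b, -0.078 to 0.14 for Runx2, -0.070 to 0.043 for Spp1 and -0.049 to 0.21 for Uty. Eif2s3x also had -0.00060 with DESeq2 size factors, -0.0028 with upper-quartile factors, -0.017 with no filter and -0.010 at 5 CPM. At 5 CPM some marker lists had no member left and gave no value.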
